A study of Rattus norvegicus with 11 samples.

Results

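The genes described here are the molecules by which blood leukocytes attach to the vessel wall and cross it: Icam1, Vcam1, Sele, Selp, Selplg, Itgal, Itgam, Itgb2, Itga4 and Itga5. They were found by matching their symbols, and each matched 1 gene, so that they made up 10 of the 30560 genes of the table. All 10 were among the 15742 genes that passed the filter on low counts and were tested. Selp, Sele and Itga4 lay below the filter's level in both Normal rats and passed it through the hemorrhage rats, so a higher level there was in part a condition of being tested.

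Leukocyte recruitment proceeds in steps. Selectins on activated endothelium catch leukocytes through sugar-bearing ligands such as the product of Selplg, and the cells roll along the wall. Integrins on the leukocyte then switch to a form with high affinity, hold the immunoglobulin-type ligands Icam1 and Vcam1, and let the cell arrest and migrate through. In the brain few leukocytes cross intact vessels, and microglia, the resident macrophages, themselves carry Itgam, Itgb2 and Selplg.

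RNA sequencing of the striatum was carried out in 11 adult male Sprague-Dawley rats, 1 poly(A)-selected library per rat, at day 3 in a model of intracerebral hemorrhage (ICH). Collagenase VII-S, an enzyme that breaks down the vessel's basement membrane and causes bleeding, was injected into the right striatum, and the striatum on that side was taken. The common hemorrhage group, IC, had 3 rats given 0.2 U of collagenase in 1.0 μL of saline, and the severe hemorrhage group, IS, had 3 rats given 0.6 U in 3.0 μL. The group IS-HA had 3 rats given the IS dose, from which 150 μL of hematoma was aspirated at 6 h. The group Normal had 2 rats with neither injection nor aspiration. There was no group injected with saline alone, so hemorrhage and the injection itself cannot be told apart in any comparison with Normal. Likewise, IS-HA differed from IS by a second anesthesia and a catheter track as well as by the removal of blood. Sample numbers are those of the labels, so the Normal rats are replicates 1 and 3.

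The libraries held between 6701301 and 18817645 counts in genes. A floor of 3 counts therefore stood between 0.159 and 0.448 CPM (counts scaled to the library's total), counting error only. The smallest library was that of IS-HA replicate 2. The tissue carried its own markers: 9 genes of striatal neurons summed to 6300 to 6720 TPM (a level scaled to transcript length and library total) in Normal, 2780 to 5500 TPM in IC, 1350 to 3570 TPM in IS and 1360 to 3030 TPM in IS-HA. Markers of monocytes, macrophages and neutrophils moved the other way. The sum of 8 monocyte and macrophage genes was 37.3 to 44.9 TPM in Normal, 668 to 1660 TPM in IC, 1400 to 4310 TPM in IS and 994 to 1550 TPM in IS-HA, and all 8 were higher than in Normal in each hemorrhage group. Of 10 neutrophil genes, 6 passed the filter on low counts and all 6 were higher, while the defining granule gene Ltf was at 0 in every rat. The 10 neutrophil genes summed to only 5.03 to 5.23 TPM in Normal. In either list, a gene scarce in Normal could pass the filter only through the hemorrhage rats, and its direction was then in part fixed. In bulk tissue, more cells of a type and more RNA per cell cannot be told apart, and the part of these cells in the results below was not tested.

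To ask how the adhesion genes responded to hemorrhage, each hemorrhage group was compared with Normal. A gene was called where edgeR's quasi-likelihood test gave a Benjamini-Hochberg adjusted p under 0.05 over all genes tested and a log2 fold change of at least 1 in size. Icam1, Selp, Itgal, Itgam, Itgb2 and Itga5 rose in all 3 hemorrhage groups, and Sele rose in IS. Vcam1, Selplg and Itga4 were not called in any of them, and no member fell, where 2.66%, 17% and 7.71% of all genes tested were called lower in IC, IS and IS-HA. Thus 6 of 10 members were called higher in IC, where 10.9% of all genes tested were called higher. In IS it was 7 of 10 against 18.8%, and in IS-HA 6 of 10 against 15.1%. The median log2 fold change of the 10 members was 2.71 in IC, 3.04 in IS and 2.71 in IS-HA, beside 0, 0.02 and 0.06 over all genes tested. By TPM, every rat lay above both Normal rats for 9 of 10 members in IC, 9 of 10 in IS and 7 of 10 in IS-HA, beside 34.6%, 37.2% and 33.3% of all genes tested. The 3 comparisons share the same 2 Normal rats.

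**Figure D1:**
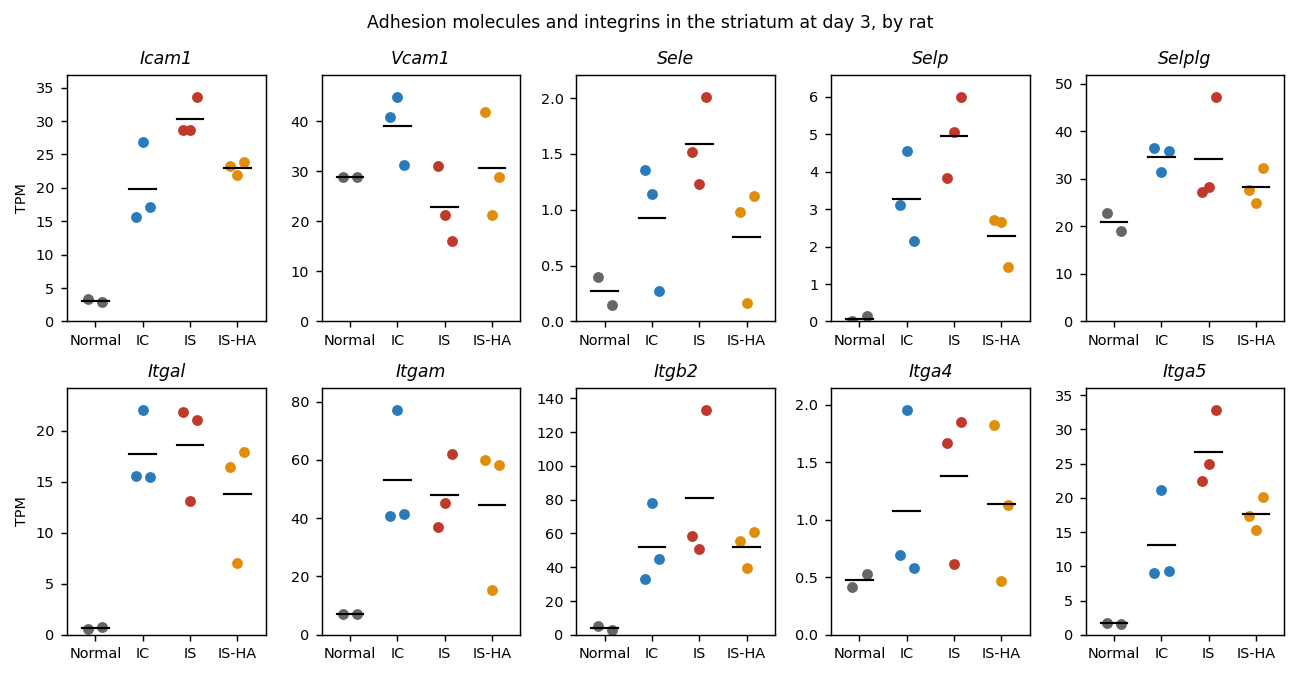
Level of each of the 10 members in TPM (y axis, from 0, own scale per gene) in each rat, by group (x axis); each point is 1 rat and the black line is the group mean. Icam1, Selp, Itgal, Itgam, Itgb2 and Itga5 lie near the bottom of their axis in both Normal rats and higher in all 9 hemorrhage rats, whereas Vcam1 stood at 28.9 TPM in both Normal rats, inside the span of the hemorrhage rats.

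Icam1 and Vcam1, the immunoglobulin-type ligands of the integrins, went separate ways. Which cells of the tissue carried these transcripts was not tested. Icam1, which binds the Itgb2 integrins, stood at 3.36 and 2.88 TPM in Normal. It reached 15.6, 26.8 and 17.1 TPM in IC, 28.6, 28.6 and 33.6 TPM in IS, and 23.2, 21.9 and 23.9 TPM in IS-HA. All 9 hemorrhage rats were above both Normal rats, and every IS rat was above every rat of the other groups. The fold change over Normal was 6.04 in IC (log2 2.59 ± 0.28 SE, edgeR adjusted p = 0.000216), 9.79 in IS (log2 3.29 ± 0.29, adjusted p = 3.57e-05) and 7.27 in IS-HA (log2 2.86 ± 0.28, adjusted p = 0.000102). Vcam1, which binds the integrin made of Itga4 and Itgb1, was already the most abundant member in Normal, at 28.9 TPM in both rats. It measured 40.8, 44.8 and 31.2 TPM in IC, 31, 21.3 and 16 TPM in IS, and 41.9, 21.3 and 28.8 TPM in IS-HA. Every IC rat lay above Normal, whereas the IS and IS-HA rats lay on both sides of it. The log2 fold change over Normal was 0.37 ± 0.25 in IC, -0.34 ± 0.25 in IS and 0.05 ± 0.25 in IS-HA, with edgeR adjusted p of 0.322, 0.264 and 0.888.

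The promoters of both genes are shown because their transcripts parted while both windows hold the same short motif. They run from 250 bases before to 50 bases after the start of the gene in RefSeq, build GRCr8, read 5′ to 3′ on the gene's strand, at chr8:27829595-27829894 (plus strand) for Icam1 and chr2:206742734-206743033 (minus strand) for Vcam1. Capitals mark GGNNNTTCC on either strand, a shortened form of the sequence bound by the inflammatory transcription factor NF-kB.
Icam1: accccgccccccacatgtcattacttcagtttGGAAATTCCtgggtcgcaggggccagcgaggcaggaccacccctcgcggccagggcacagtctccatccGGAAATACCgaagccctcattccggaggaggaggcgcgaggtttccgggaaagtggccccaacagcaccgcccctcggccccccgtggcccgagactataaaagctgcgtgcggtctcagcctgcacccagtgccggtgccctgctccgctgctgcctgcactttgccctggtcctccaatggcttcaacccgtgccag
Vcam1: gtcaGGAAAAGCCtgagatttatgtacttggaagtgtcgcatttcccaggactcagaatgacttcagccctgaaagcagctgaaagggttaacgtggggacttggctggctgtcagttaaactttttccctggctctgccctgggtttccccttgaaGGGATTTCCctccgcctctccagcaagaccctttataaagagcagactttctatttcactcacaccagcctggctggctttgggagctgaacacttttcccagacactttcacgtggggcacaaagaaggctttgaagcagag
In Icam1 the motif began at base -218, where the same bases match on both strands, and at -149 on the reverse strand. In Vcam1 it began at -246 on the reverse strand and at -93. Of 33469 rat promoters of this length, 18.3% held it. Promoter entries were matched for 6 members, of which 3 held the motif, the other one being Itga5. Icam1 and Vcam1 also held TATAAA, at -53 and at -60, a word found in 14.2% of the promoters, and in Vcam1 it also matched the reverse strand from -62, overlapping the first match. These matches describe the sequence and are not shown to be used sites, and a window without a match says nothing of the factor.

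The endothelial selectins were scarce transcripts. Selp encodes P-selectin, held in granules of endothelium and platelets for quick release. It was at 0 and 4 counts in the Normal rats, which is 0 and 0.157 TPM. It measured 3.12, 4.56 and 2.15 TPM in IC, 3.83, 5.07 and 6 TPM in IS, and 2.71, 2.67 and 1.46 TPM in IS-HA. All 9 hemorrhage rats were above Normal. The log2 fold change was 5.24 ± 0.76 in IC (edgeR adjusted p = 0.000972), 5.93 ± 0.76 in IS (adjusted p = 0.000222) and 4.78 ± 0.77 in IS-HA (adjusted p = 0.00135). Its size rests on the 4 counts of Normal replicate 3: without Normal replicate 1 the log2 values were 4.33, 5.02 and 3.87. Without Normal replicate 3, the remaining Normal rat is at 0, and against a floor of 3 counts in that library Selp was at least 28.8-fold higher in IC, 46-fold in IS and 20.8-fold in IS-HA.

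Among platelet markers, 2 of 6 passed the filter on counts, 1 of those was called higher in each hemorrhage group, and 1 of the 6 was at 0 in all rats. Pf4, the gene called, was at 2.15 to 2.6 TPM in Normal and 81.5 to 772 TPM across the hemorrhage rats, and in the hemorrhage rats it made up most of the list's summed level. Itga2b, the platelet integrin chain, was at 4.04 to 5.17 TPM in Normal and 3.64 to 6.72 TPM in the hemorrhage rats, and the part of platelets in the Selp values was not tested.

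Sele, which encodes E-selectin, made by activated endothelium, stood at 0.397 and 0.148 TPM in Normal. It measured 1.36, 1.14 and 0.274 TPM in IC, 1.52, 1.23 and 2.01 TPM in IS, and 0.977, 0.162 and 1.12 TPM in IS-HA. All 3 IS rats were above Normal, while IC replicate 4 and IS-HA replicate 2 lay between the Normal rats, on 5 and 2 counts. The log2 fold change in IS was 2.51 ± 0.76 (edgeR adjusted p = 0.0187). It was not called without Normal replicate 3 (log2 1.93, adjusted p = 0.15) or without IS replicate 4 (log2 2.26, adjusted p = 0.0506), and without Normal replicate 1 it was 3.45. In IC it was 1.67 ± 0.75 and in IS-HA 1.41 ± 0.77, with adjusted p of 0.143 and 0.173. Without Normal replicate 1 these were 2.6 and 2.34, and without Normal replicate 3 they were 1.08 and 0.82.

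Selplg, the leukocyte ligand of the selectins, came next to Vcam1 by level in Normal and was not called in any group. It stood at 22.8 and 19.1 TPM in Normal, 36.4, 31.5 and 35.8 TPM in IC, 27.2, 28.2 and 47.2 TPM in IS, and 27.7, 25 and 32.2 TPM in IS-HA. Every hemorrhage rat was above both Normal rats. The difference was small: the log2 fold change was 0.66 ± 0.28 in IC, 0.73 ± 0.28 in IS and 0.41 ± 0.28 in IS-HA, with edgeR adjusted p of 0.121, 0.0492 and 0.27, so that the IS value passed on its p and missed the fold cutoff. Enzymes that add sugars or sulfate to selectin ligands were divided. Of 8 such genes tested, 4 that add sugars rose in IS. They were Fut7 and Fut4, which add fucose (log2 5.49 ± 0.78 and 1.85 ± 0.36), B4galt1, which adds galactose (2.82 ± 0.35), and Gcnt1, which starts the branch (2.01 ± 0.27). Their edgeR adjusted p ran from 0.000191 to 0.00216, and the same number, 4 of 8, was called in IC and in IS-HA. Of all genes tested, 10.9%, 18.8% and 15.1% were called higher in IC, IS and IS-HA. The remaining 4 had log2 fold changes from -0.14 to 0.37 in IS. Of these, Tpst1, Tpst2 and Chst2 add sulfate, and St3gal6 adds a sugar, sialic acid. Fut7 passed the filter through the hemorrhage rats.

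Itgb2 and its partner chains Itgal and Itgam rose in all 3 hemorrhage groups. Itgb2, the beta chain shared by the leukocyte integrins, stood at 5.15 and 3 TPM in Normal. It measured 33.2, 77.9 and 45 TPM in IC, 58.7, 51.1 and 133 TPM in IS, and 55.8, 39.4 and 60.8 TPM in IS-HA. Its log2 fold change was 3.59 ± 0.55 in IC (edgeR adjusted p = 0.00131), 4.34 ± 0.57 in IS (adjusted p = 0.000253) and 3.62 ± 0.55 in IS-HA (adjusted p = 0.000966). All 9 hemorrhage rats were above both Normal rats. The IS value leans on replicate 4, at 133 TPM, and was 3.7 on the log2 scale without it.

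Itgal, the alpha chain of the Icam1 receptor of lymphocytes and other leukocytes, was close to absent in Normal at 0.593 and 0.78 TPM. It measured 15.6, 22 and 15.5 TPM in IC, 21.8, 13.1 and 21 TPM in IS, and 16.4, 7.05 and 17.9 TPM in IS-HA. The lowest of the 9, IS-HA replicate 2, was still above both Normal rats. The fold change was 24.7 in IC (log2 4.62 ± 0.39, edgeR adjusted p = 0.000115), 27.3 in IS (4.77 ± 0.4, adjusted p = 3.49e-05) and 19.2 in IS-HA (4.27 ± 0.39, adjusted p = 8.1e-05).

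Itgam, the alpha chain of the complement and Icam1 receptor of neutrophils, monocytes and microglia, stood at 7.18 and 7.01 TPM in Normal. It measured 40.6, 77 and 41.5 TPM in IC, 36.8, 45.1 and 61.9 TPM in IS, and 60.1, 15.3 and 58.2 TPM in IS-HA. All 9 hemorrhage rats were above Normal, and IS-HA replicate 2 was the lowest of them. The log2 fold change was 2.83 ± 0.5 in IC, 2.79 ± 0.5 in IS and 2.56 ± 0.49 in IS-HA, with edgeR adjusted p of 0.0031, 0.00133 and 0.0036. Without Normal replicate 3 the IC value was 2.75, with an adjusted p of 0.0533, so it was not called. Microglia also carry Itgam, and a list of 8 microglial genes summed to 143 to 162 TPM in Normal, 321 to 412 TPM in IC, 256 to 305 TPM in IS and 225 to 400 TPM in IS-HA. Members of that list did not move together: 5 of the 8 were called higher in IC, 4 in IS and 5 in IS-HA. In IS the rest, P2ry12, Tmem119, Sall1 and P2ry13, had log2 fold changes from -0.38 to 0.47. The part of microglia in the Itgam values was not tested.

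The promoter of Itgam is shown because this gene is a textbook target of PU.1, the transcription factor of myeloid cells. It lies at chr1:192089342-192089641 (plus strand) in RefSeq, build GRCr8, and capitals mark GAGGAA on either strand, a core of the PU.1 sequence.
Itgam: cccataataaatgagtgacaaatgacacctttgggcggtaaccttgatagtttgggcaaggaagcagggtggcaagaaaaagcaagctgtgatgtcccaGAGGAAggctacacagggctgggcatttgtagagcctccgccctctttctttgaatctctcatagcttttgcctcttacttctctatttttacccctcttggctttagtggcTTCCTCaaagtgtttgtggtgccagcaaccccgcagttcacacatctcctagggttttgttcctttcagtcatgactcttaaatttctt
The motif began at -151, and at -39 on the reverse strand as TTCCTC. It was held by 27.6% of the promoters and by 2 of the 6 members with an entry, Itgam and Itga5. It did not overlap any other motif searched in Itgam.

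Itga5 rose steeply while Itga4 stayed scarce, although both pair with the same beta chain, Itgb1. Itga5, which with Itgb1 forms the main fibronectin receptor and is carried by endothelium as well as by myeloid cells, stood at 1.71 and 1.62 TPM in Normal. It measured 9.03, 21.1 and 9.29 TPM in IC, 22.4, 25 and 32.8 TPM in IS, and 17.4, 15.3 and 20.2 TPM in IS-HA. All 9 hemorrhage rats were above Normal, and the 3 IS rats were above all others. The fold change was 7.48 in IC (log2 2.9 ± 0.38, edgeR adjusted p = 0.000633), 16.3 in IS (4.03 ± 0.4, adjusted p = 6.05e-05) and 10.4 in IS-HA (3.38 ± 0.39, adjusted p = 0.000224). Itga4, the lymphocyte and monocyte chain that binds Vcam1, stood at 0.414 and 0.529 TPM in Normal. It measured 0.692, 1.95 and 0.576 TPM in IC, 1.67, 0.615 and 1.85 TPM in IS, and 1.82, 0.465 and 1.13 TPM in IS-HA. IS-HA replicate 2 lay between the Normal rats, on 6 counts, and the other 8 hemorrhage rats lay above both. The log2 fold change was 1.13 ± 0.66 in IC, 1.54 ± 0.67 in IS and 1.25 ± 0.67 in IS-HA, with edgeR adjusted p of 0.247, 0.0784 and 0.167. The IC value was 0.41 without IC replicate 3, and the IS value was called without IS replicate 3 (log2 1.92, adjusted p = 0.0401). Itgb1 itself stood at 68.7 ± 2.84 TPM in Normal (SD, n = 2) and 178 ± 26.1 TPM in IS (SD, n = 3), a log2 fold change of 1.39 ± 0.21 (edgeR adjusted p = 0.000539).

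**Figure D2:**
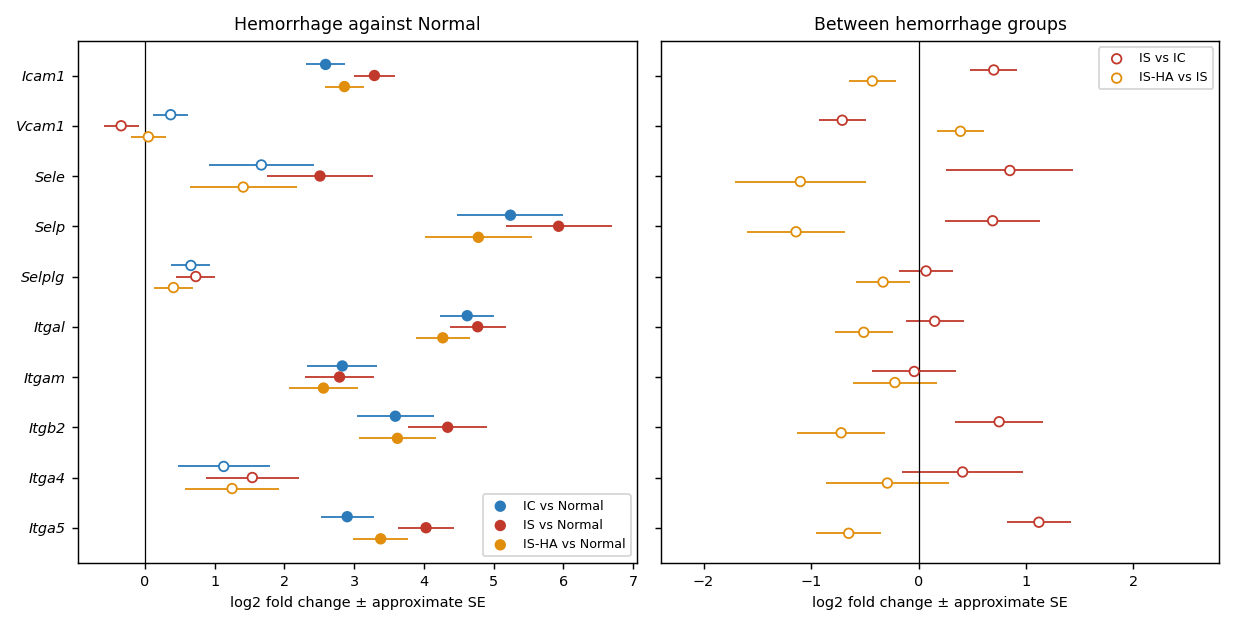
Log2 fold change of each member (x axis) with its approximate standard error (bars), for the hemorrhage groups against Normal on the left and between hemorrhage groups on the right, on different x scales; filled points were called, open points were not. On the left Selp in IS lies farthest out at 5.93 and Vcam1 lies around 0, and on the right no point is filled.

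The order of the members by level changed with hemorrhage. In TPM, Normal striatum was led by Vcam1 and Selplg, with group means of 28.9 and 21 TPM, followed by Itgam at 7.09 TPM, Itgb2 at 4.07 TPM and Icam1 at 3.12 TPM. The rats of Itgb2 and Icam1 overlapped, whereas those of Vcam1, Selplg and Itgam did not overlap with each other. In IS the order was led by Itgb2 at 81 TPM and Itgam at 48 TPM, then Selplg at 34.2, Icam1 at 30.3, Itga5 at 26.7, Vcam1 at 22.8 and Itgal at 18.6 TPM. Each of these overlapped with its neighbour in the order. Selp, Sele and Itga4 reached at most 6 TPM in any rat and stood at 4.97, 1.59 and 1.38 TPM on average in IS.

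To ask whether the severe hemorrhage differed from the common one, IS was compared with IC. No member was called, where 0% of all genes tested were called by edgeR. At an unadjusted p under 0.05, 2 members were higher in IS, beside 10.5% of all genes tested, and 1 was lower, beside 11.7%. DESeq2's Wald test called 1 of 10, Itga5, and 3.83% of all genes tested. Itga5 was higher in IS by 1.12 ± 0.3 on the log2 scale (edgeR adjusted p = 0.147), with all 3 IS rats above all 3 IC rats. DESeq2 put it at 1.14 with an adjusted p of 0.0183, and edgeR without IS-HA replicate 2 at 1.12 with an adjusted p of 0.0378, a fit that called 6.06% of all genes tested. Icam1 was higher by 0.7 ± 0.22 (edgeR adjusted p = 0.156), again without overlap. DESeq2 gave Icam1 0.71 with an adjusted p of 0.0478, under the fold cutoff. Vcam1 was lower by the same amount, at -0.71 ± 0.22 (edgeR adjusted p = 0.156), and all 3 IS rats were below all 3 IC rats by TPM. In all, 2 of 10 members lay wholly above IC, beside 15.4% of all genes tested, and 1 of 10 wholly below, beside 18%. The remaining 7 members overlapped, with log2 differences from -0.04 ± 0.39 for Itgam to 0.85 ± 0.59 for Sele. Itgb2 was higher by 0.75 ± 0.41, which fell to 0.11 without IS replicate 4. The members' median was 0.55, beside a median of 0 over all genes.

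To ask what differed after aspiration, IS-HA was compared with IS. No member was called, where 0.00635% of all genes tested were called by edgeR in either direction. At an unadjusted p under 0.05, 1 member was lower, Selp, beside 3.36% of all genes tested, and DESeq2's Wald test called 0, where it called 0.4% of all genes tested. All 3 IS-HA rats were below all 3 IS rats in TPM for 4 of 10 members, Icam1, Sele, Selp and Itga5, beside 6.37% of all genes tested. Among these 4, Selp was at -1.14 ± 0.46 on the log2 scale (edgeR adjusted p = 0.548), Sele at -1.1 ± 0.61 (adjusted p = 0.585), Itga5 at -0.65 ± 0.3 (adjusted p = 0.561) and Icam1 at -0.43 ± 0.22 (adjusted p = 0.565). Itgb2 and Itgal, at -0.72 ± 0.41 and -0.51 ± 0.27, overlapped between the groups, and Itgb2 was at -0.08 without IS replicate 4. Vcam1 was the 1 member with a positive difference, 0.39 ± 0.22 (edgeR adjusted p = 0.59), and its rats overlapped. The members' median was -0.47, beside 0.05 over all genes. Against IC, IS-HA had 0 of 10 members called by edgeR, 0 at an unadjusted p under 0.05 and 0 by DESeq2. Of all genes tested, edgeR called 0% and DESeq2 0.114%, and 2.59% were higher and 2.38% lower at that unadjusted p. In 0 members did the IS-HA and IC rats separate by TPM, beside 4.83% of all genes tested wholly above and 3.49% wholly below, and the members' median was -0.26.

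Within groups, single rats set much of the spread. On normalised CPM, IS replicate 4 was the highest IS rat for 9 of 10 members and the lowest for Vcam1. IC replicate 3 was the highest IC rat for 8 of 10. Each of these was also the highest of its group for the 4 leukocyte anchor genes (Ptprc, Lcp1, Coro1a and Laptm5), at 1010 TPM summed in IS replicate 4 and 580 TPM in IC replicate 3. IS-HA replicate 2 was likewise the highest of its group for the summed anchor genes, at 766 TPM against 496 and 548 TPM in replicates 1 and 3. Yet IS-HA replicate 2 was the lowest of its group for 6 members and the highest for 3. It had the lowest Itgam of the hemorrhage rats, 15.3 TPM, although its neutrophil markers summed to 864 TPM, against 170 and 218 TPM in replicates 1 and 3, and its T cell markers to 16.8 TPM against 4.56 and 3.73 TPM. The counts of members called in IS-HA against Normal and against IS were the same without it, 6 and 0. That fit called 18.5% and 3.03% of all genes tested.

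The members were also set against their partner chains and against anchor genes of leukocytes or endothelium, which can carry them. Whether other cells of the tissue carried them was not tested. For each rat the log2 ratio of TPM was taken within integrin pairs, to the geometric mean of the 4 leukocyte genes, or to that of 10 endothelial genes including Pecam1, Cdh5 and Cldn5. Those 10 summed to 161 to 228 TPM in Normal and 266 to 345 TPM in the hemorrhage rats, and 2 of them were called higher in IS. The 4 leukocyte genes summed to 87.1 to 102 TPM in Normal, 385 to 580 TPM in IC, 715 to 1010 TPM in IS and 496 to 766 TPM in IS-HA. All 4 were called higher in each hemorrhage group, so a ratio to them can be lower without a lower level of the member itself. With 9 hemorrhage rats against 2, the two-sided exact permutation test cannot go below p = 0.0364. It gave that value for 7 of 14 ratios, each with an adjusted p of 0.0727, so none passed 0.05 after adjustment.

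Relative to the endothelial genes, the hemorrhage rats were higher than Normal by 2.47 on the log2 scale for Icam1 and by 2.91 for Itga5, in 9 of 9 rats each. Selp also lay higher in 9 of 9, but the size of its difference depends on the pseudocount, since 1 Normal rat is at 0, at 3.95 with 0.1 TPM and 1.59 with 1 TPM. Relative to the leukocyte genes, Selplg was at -1.5 ± 0.44 (SD, n = 9) in the hemorrhage rats and 1 ± 0.04 (SD, n = 2) in Normal. Itga4 had the same direction, with a difference of -2.08. Both ratios were lower in 9 of 9 rats, while the tissue levels of both genes had positive log2 fold changes. Within integrin pairs, Itga5 relative to Itgb1 was higher by 2.15, and Itgam relative to Itgb2 differed by -1.18, again in 9 of 9 rats.

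Between IS and IC, where 3 rats against 3 cannot go below p = 0.1, 8 of 14 ratios separated without overlap, each at an exact permutation p of 0.1 and an adjusted p of 0.175. Itgam relative to Itgb2 was 0.29, -0.02 and -0.12 in IC and -0.67, -0.18 and -1.11 in IS. Itgam relative to the leukocyte genes was lower in IS by a difference of -0.84, Selplg by -0.78 and Itgal by -0.67. By TPM alone Itgam, Selplg and Itgal overlapped between IS and IC. The summed leukocyte genes did not, at 385 to 580 TPM in IC and 715 to 1010 TPM in IS. Relative to the endothelial genes, Icam1 was higher in IS by 0.64 and Itga5 by 1.11, and Vcam1 differed by -0.81. Itga5 relative to Itgb1 was higher by 0.82. Between IS-HA and IS, 4 of 14 separated, all to endothelial genes: Icam1 at -0.26, Sele at -1.11, Selp at -0.99 and Itga5 at -0.46, each at an exact permutation p of 0.1 and an adjusted p of 0.35. Those are the same members that lay wholly below IS by TPM. None of the ratios between hemorrhage groups could have passed 0.05, and no share over all genes was taken to stand beside these counts.

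**Figure D3:**
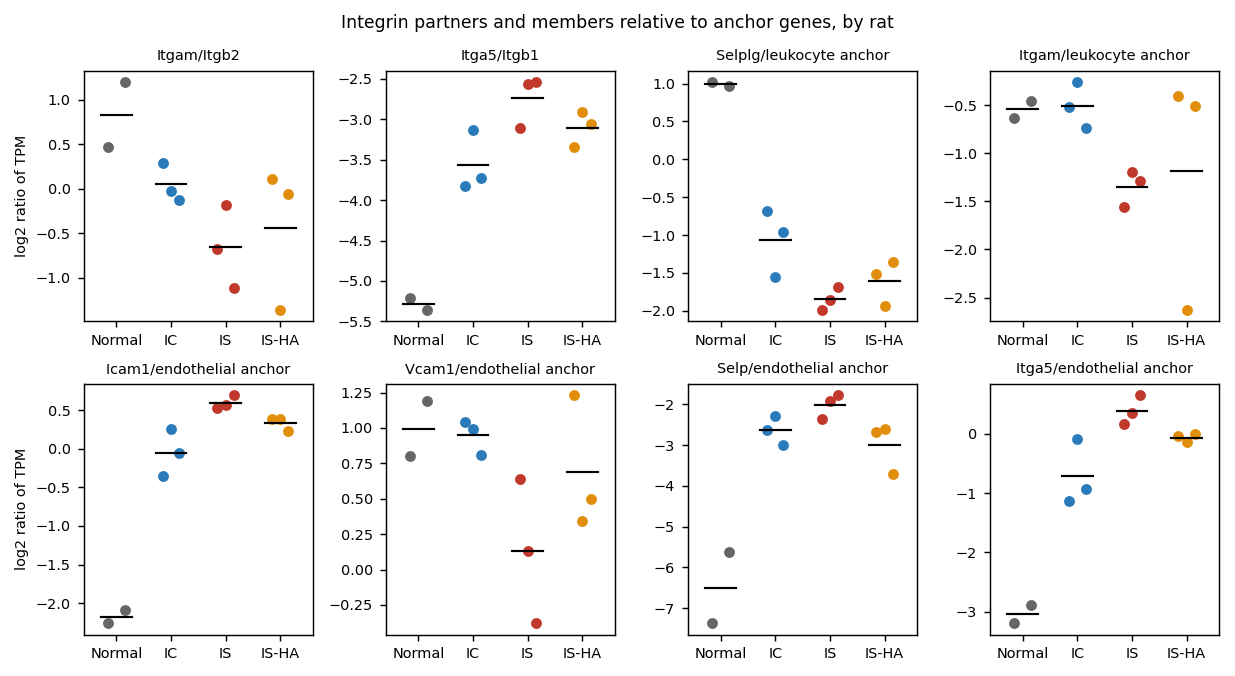
Log2 ratio of TPM (y axis, own scale per panel) in each rat by group (x axis) for 8 of the 14 ratios; each point is 1 rat and the line is the group mean. Selplg relative to the leukocyte genes lies near 1 in Normal and below 0 in all 9 hemorrhage rats, and IS-HA replicate 2 lies apart at -2.63 for Itgam relative to the leukocyte genes.

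The other genes of leukocyte adhesion were taken from 7 lists with 82 symbols, of which 77 were in the table and 68 were tested. In IC 29 of the 68 were called higher and 1 lower, in IS 33 and 6, and in IS-HA 28 and 3. Of all genes tested, 10.9%, 18.8% and 15.1% were called higher in IC, IS and IS-HA, and 2.66%, 17% and 7.71% lower. The counts of single lists below stand beside these same shares. Of 11 further leukocyte adhesion receptors, 10 were in the table and 7 were tested and called higher in each hemorrhage group. Of those 7, 4 lay below the filter's level in both Normal rats and passed it through the hemorrhage rats, Itgax, Pilra and Itgb7 among them, so their direction was in part fixed by the filter. Cd44 and Spn, which had at least 10 counts in every rat, rose by 4.14 ± 0.43 and 2.83 ± 0.47 in IS. Itgax, a further partner of Itgb2 and a neighbour of Itgam in gene order, rose by 6.59 ± 0.65 in IS (edgeR adjusted p = 5.78e-05). Pilra, a receptor of myeloid cells, rose by 6.01 ± 0.87, and Itgb7, another partner of Itga4, by 5.16 ± 0.96. Integrin activation genes were called higher for 9 of 16 in IS. Vav1, which signals from receptors to the cytoskeleton, rose by 4.73 ± 0.4, Fermt3, the kindlin that leukocytes need to activate Itgb2, by 4.62 ± 0.39, Fyb1, an adaptor, by 2.99 ± 0.43 and Apbb1ip, which links Rap1 to talin, by 2.84 ± 0.25. The 1 called lower was Rasgrp2, an activator of Rap1 that striatal neurons also express, at -1.72 ± 0.29.

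Of 4 genes of the shedding of adhesion molecules from the surface, 3 rose in each hemorrhage group. In IS they were the proteases Adam8 at 4.88 ± 0.6 and Adam17 at 1.49 ± 0.23 on the log2 scale, and Rhbdf2, an inactive relative of proteases that helps Adam17 mature, at 4.06 ± 0.44. Among 7 ligands of integrins in matrix and plasma, 5 were called higher and 1 lower in IS. Spp1, osteopontin, went from a mean of 2.28 TPM in Normal to 9440 TPM in IS (log2 12.08 ± 1.06, edgeR adjusted p = 3.57e-05). Thbs1, thrombospondin, rose by 6.43 ± 0.97, Fn1, the fibronectin that Itga5 binds, by 3.32 ± 0.49, and Vwf, which endothelium and platelets store, by 1.78 ± 0.31. Edil3, at -1.42 ± 0.37, was the 1 called lower, but not without Normal replicate 3 or under the block.

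Endothelial junction and transmigration genes were mostly not called. Of 11 tested, 0 were called in IC, 3 higher and 1 lower in IS, and 0 higher and 1 lower in IS-HA, with a median of 0.31 in IS. In IS, Icam2, an Icam1 relative held by resting endothelium, rose by 1.46 ± 0.44, and the junction molecules Esam and F11r by 1.11 ± 0.28 and 1.03 ± 0.23, while Alcam, an adhesion molecule also made by neurons, was at -1.66 ± 0.19. Icam2, Esam and F11r were not called without Normal replicate 3, without IS replicate 4 or under the replicate block, and Icam2 was not called without Normal replicate 1 either. The other integrin chains had no common direction, with 2 of 15 higher and 3 lower in IS, beside 18.8% and 17% of all genes tested. Itgb8, Itgb6 and Itga1 stood at -3.47 ± 0.72, -3.1 ± 0.55 and -1.99 ± 0.45 on the log2 scale, and Itgb4 at 1.55 ± 0.36. Itga1 was not called without Normal replicate 3, Itgb4 without Normal replicate 1, or Itgb8 under the block. Between hemorrhage groups edgeR called 0 of the 68. DESeq2 called 8 of them between IS and IC, where it called 603 of all 15742 genes tested. Those named here went both ways. By edgeR, Adam8 was higher in IS than in IC by 1.66 ± 0.43 on the log2 scale, Itgax by 1.27 ± 0.39, Fermt3 by 1.1 ± 0.28 and Cd44 by 1.01 ± 0.32. Itgb8 stood at -2.2 ± 0.66, Itgb6 at -1.89 ± 0.52 and C3 at -1.12 ± 0.25.

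**Figure D4:**
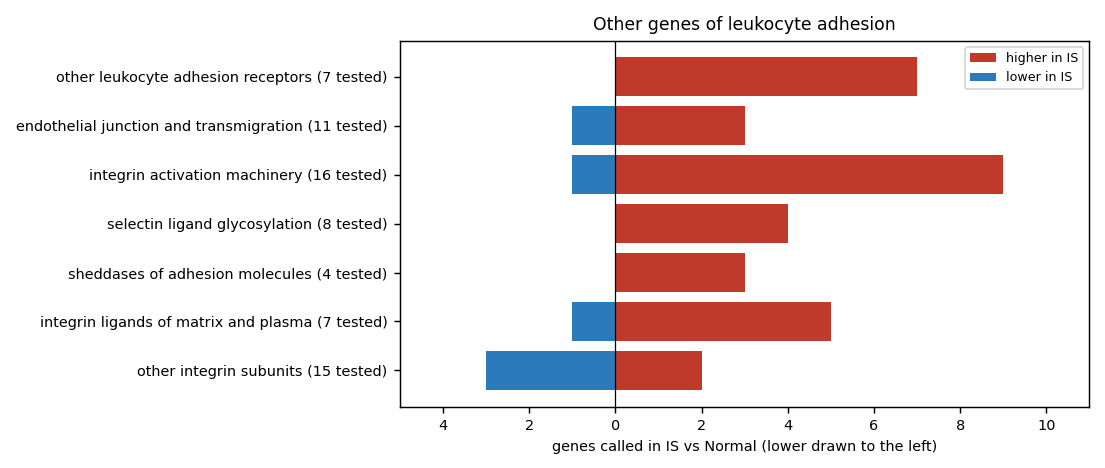
Number of genes called by edgeR in IS against Normal (x axis) in each of 7 lists of other adhesion genes (y axis, with the number tested); bars to the right count genes higher in IS and bars to the left genes lower in IS. Of the 7 leukocyte adhesion receptors tested, 4 passed the count filter only through the hemorrhage rats. Of 15 other integrin subunits, 2 were higher and 3 lower, beside 18.8% and 17% of all genes tested.

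For each member the tested genes with the most similar profile were found as the smallest root mean square difference of log2 CPM, each gene centred on its own mean, over the 11 rats. Icam1 was nearest to Tpm4 and Lyn, a kinase of myeloid cells, at 0.144 and 0.145 on the log2 scale. Itga5 was nearest to A3galt2 at 0.143 and Cd44, the hyaluronan receptor, at 0.191. Itgal was nearest to Tfec at 0.166 and Cybb, the core of the phagocyte oxidase, at 0.334, Itgam to Adcy7 at 0.236 and Itgb2 to Emp1 at 0.175. Vcam1 was nearest to Itih5 at 0.107 and Selplg to Cfap300 at 0.121. For the scarce genes the nearest were Aspg at 0.419 for Selp, Msc at 0.44 for Sele and Spag17 at 0.251 for Itga4. These distances describe 11 libraries that share tissue and depth, and carry no test.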

How the data were processed

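Counts per gene and TPM values are those deposited by the authors. The submitters' processing notes name fastp 0.20.0, FastQC 0.11.9, HISAT2 2.1.0, SAMtools 1.9, featureCounts and build mRatBN7.2. Libraries were made with a stranded kit. The annotation release and strand setting are not given in the sources used here, so reads of overlapping genes may be shared. Depth ran from 6701301 to 18817645 counts, and 4447 of 30560 genes had no symbol.

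The deposited counts were filtered with filterByExpr, normalised with TMM and fitted in edgeR 4.0.16 (R 4.3.3) with its quasi-likelihood test over 4 groups and 11 rats, 15742 genes, without a block. P-values were adjusted by Benjamini-Hochberg. A gene was called at adjusted p under 0.05 and a log2 fold change of at least 1 in size. These are the cutoffs of the study's methods, which applied them with DESeq2. For IS-HA against IS, a figure of the study used a log2 fold change under -0.5. With a cutoff of 0.5 in size and an adjusted p still under 0.05, edgeR called 0 of 10 members in that comparison, beside 0.00635% of all genes tested. The figure's legend names no p cutoff, so the rules are not alike. Each SE is approximate, the size of the log2 fold change over the root of its F statistic. Ratios used log2 of the authors' TPM plus a pseudocount of 0.1, and two-sided exact permutation tests (scipy 1.17.1), adjusted over 14 ratios per comparison. The fit was tested on simulated data. Samples were taken as separate rats, as the labels number them.

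The members and lists were chosen with earlier results of these data known. Named beside the members were Itgb1, up to 4 called genes per list with the largest change in IS against Normal, and the 2 nearest profiles per member, of which the text prints 1 or both. Genes of lists called only under an alternative were named after their values were seen, as was Ltf. Hemoglobin, mitochondrial and red cell symbols were respelled to the table's after it was seen. Itgae, listed under several identifiers, was left out, and results for 1 gene of the lists are not reported here. Alternatives were DESeq2 1.42.0, other normalisations and filters, the replicate block, fits to the compared groups alone, other cutoffs, ratios of mean TPM, and leaving out each rat.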

Additional observations from a re-analysis of the deposited data

How the results depend on the processing

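With at most 3 rats a group and 2 in Normal, single rats decide the weaker calls, and Selp and Sele, with 4 and 15 counts in Normal, have folds set by few reads. Scaling by library size alone moved the median of all genes by up to 0.14 on the log2 scale, from 0.003 to 0.143 in IC against Normal, and changed no count of members called. Requiring at least 10 counts in every rat left 5 members called in each comparison with Normal, as Selp, Sele and Itga4 were then not tested. Of all genes then tested, 12.1%, 33.4% and 21.6% were called in IC, IS and IS-HA. Of the members' fold changes under the alternatives, 1150 kept direction and, where a test was run, the call. Another 25 changed sign, 4 lost and 3 gained the call. Ratios of mean TPM carry no test and were judged by direction alone. Of the ratios, 516 kept their direction and 30 changed sign. The values that changed sign were of differences that did not pass the test.

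Leaving out each hemorrhage rat in turn gave 6 members called in IC against Normal, 6 to 8 in IS and 6 in IS-HA. Of all genes tested, these fits called 8.33% to 18.8%, 28.9% to 37.8% and 18.5% to 26.4%. In IS against IC 0 to 1 members were called, beside 0% to 6.06% of all genes tested. The other comparisons had 0, beside at most 3.03% between IS-HA and IS and 0.00637% between IS-HA and IC. A fit that leaves out a Normal rat has 1 rat there, and its counts are not given here. Genes of the 7 lists called in IC against Normal, 30 in all, ranged from 17 (without Normal replicate 3) to 34. In IS against IC the list genes called ranged from 0 to 7. The 7 came without IS-HA replicate 2, a fit that called 6.06% of all genes tested. Adam8, C3, Fermt3, Itgax, Itgb6 and Itgb8 were among them. In IS-HA against IS the list genes called ranged from 0 to 2. The 2, with Itgb8 among them, also came without that rat, beside 3.03% of all genes tested. DESeq2 called 1 member and 8 list genes in IS against IC, beside 3.83% of all genes tested. In IS-HA against IS it called 1 list gene, beside 0.4%. The cause of these differences was not tested. Small log2 fold changes turned sign when a rat was left out. In IS against IC, Selplg ranged from -0.3 to 0.25, Itgal from -0.002 to 0.35 and Itgam from -0.33 to 0.27. In IS-HA against IS, Selplg ranged from -0.51 to 0.04, Itgam from -0.46 to 0.14 and Itga4 from -0.76 to 0.03. Vcam1 in IS-HA against Normal ranged from -0.17 to 0.16. In IS-HA against IC, Sele ranged from -0.63 to 0.09, Itgam from -0.51 to 0.09, Itgb2 from -0.22 to 0.38 and Itga4 from -0.35 to 0.84. The ratio of mean TPM put Selplg in IS against IC at -0.01 and Itgb2 in IS-HA against IC at -0.0019.

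Ratios whose rats overlapped were the ones to change sign. Leaving out a rat, the difference of Itgal to Itgb2 ranged from -0.01 to 1.09 between hemorrhage and Normal. In IS against IC the ranges were -0.11 to 0.43 for Itga4 to Itgb1, and -0.62 to 0.01 for Itga4 and -0.39 to 0.03 for Itgb2 to the leukocyte genes. In IS-HA against IS they were -0.06 to 0.67 for Itgam to Itgb2, -0.31 to 0.31 for Itgal to Itgb2 and -0.4 to 0.22 for Itga4 to Itgb1. To the leukocyte genes they were -0.29 to 0.47 for Itgal, -0.22 to 0.89 for Itgam, -0.2 to 0.22 for Itgb2 and -0.27 to 0.75 for Itga4. A pseudocount of 1 TPM gave -0.21 for Itgal to Itgb2 in hemorrhage against Normal, and -0.08 and 0.06 for Itga4 to Itgb1 in IS against IC and IS-HA against IS. With Ptprc alone as leukocyte anchor, Itgb2 was at 0.02 in IS against IC, and Itgal and Itgb2 at 0.05 and 0.03 in IS-HA against IS.

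Rats with the same number are different animals, so the numbers were not taken as pairs. Their deviations from group means had mean correlations of 0.0336 between IS and IC, and -0.282 between IS-HA and IS. For rats with different numbers these means were -0.0162 and 0.0853. Deviations cancel within each small group, so these values cannot decide whether rats with the same number are alike. With the replicate number as a block, 6 members were called in each hemorrhage group against Normal and 0 otherwise. Of all genes tested, the block fit called 5.33%, 17.1% and 14.2% in IC, IS and IS-HA against Normal. Without the block these shares were 13.6%, 35.8% and 22.8%. Sele in IS was then not called (log2 3.28, edgeR adjusted p = 0.0672), list genes in IC against Normal fell to 18, and Itga4 in IS-HA against IC was at -0.17.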
